A study of Homo sapiens with 6 samples.

Results

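MYC, MYCN, MYCL, MAX, MXI1, MXD3, MXD4, MNT, MGA and MLX form the MYC, MAX and MXD network, and their transcript levels were measured by RNA sequencing in SH-SY5Y cells. Members were taken by gene symbol, and all 10 of the 10 listed symbols had a row among the 19610 genes of the count table. SH-SY5Y is an established human neuroblastoma line, labelled wild type in every sample. One group of 3 libraries (DMSO A, B and C) came from cells given the solvent DMSO, and the other group of 3 (SGC707 A, B and C) from cells that received SGC707, which inhibits PRMT3, a protein arginine methyltransferase, with dose and duration not given in the sources used here. Whether replicates were separate cultures is not stated, and p-values therefore cover the spread among these libraries alone, which may be technical. The study asked about the inhibitor's effect on MIR448, IGF1R and tau phosphorylation, and the network was no stated part of that question.

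MYC, MYCN and MYCL are transcription factors of the basic helix-loop-helix leucine zipper type that bind DNA only after pairing with MAX. The pair recognises the E-box CACGTG and raises transcription of genes for ribosome production, metabolism and cell growth. MXI1, MXD3, MXD4 and MNT compete for MAX and for the same sites and recruit SIN3 and histone deacetylases, while MGA brings MAX into a Polycomb complex. MLX is the MAX-like partner of the glucose-sensing factors MondoA (MLXIP) and ChREBP (MLXIPL). In neuroblastoma the network is known for amplification of MYCN, which SH-SY5Y lacks.

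The E-box is the sequence that links these proteins to DNA, and it also lies upstream of some of the network's own genes. RefSeq promoter windows of 300 bases (GRCh38.p14, 250 before to 50 after a start) were matched by symbol for 9 of the 10 members, with 14 windows in all. CACGTG, which reads the same on both strands and was searched with no other motif, was present in 3 of these windows, those of MXD4, MNT and MLX. It was present in 7.26% of all 35116 windows. The stretches are shown because they carry the recognition site of the measured factors in 3 of the measured genes, with the E-box in capitals and each strand read 5′ to 3′ toward the gene.
MXD4, chr4:2262315-2262359, minus strand: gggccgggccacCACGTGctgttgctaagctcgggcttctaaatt
MNT, chr17:2401221-2401280, minus strand: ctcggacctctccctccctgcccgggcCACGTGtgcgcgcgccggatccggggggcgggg
MLX, chr17:42567023-42567082, plus strand: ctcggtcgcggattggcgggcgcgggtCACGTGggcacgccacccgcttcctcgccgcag
The first base of the E-box lay 238 bases upstream of the start in MXD4, 193 in MNT and 50 in MLX. A match describes letters in the window and is not evidence of binding in these cells.

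Each library held 11658728 to 15437602 counts in all, of which those on nuclear genes numbered 6066305 to 6327895 with DMSO and 7559322 to 8999358 with SGC707. Mitochondrially encoded genes took 46.7% to 60.7% of the counts with DMSO and 24.3% to 37.7% with SGC707. One library, SGC707 C, differed from the rest. Genes whose longest transcript had over 60% GC had a median log2 deviation of -0.82 from their own means there and of -0.03 to 0.41 in the other 5 libraries, and genes under 45% GC had one of 0.31 against -0.14 to 0.04. In the following, normalised CPM is a read count scaled to a common library size with TMM factors, values follow the order A, B, C within each group, and a log2 fold change is SGC707 minus DMSO. Of 12 adrenergic neuroblastoma markers, 11 passed the filter on low counts, with a summed level of 6046 to 7589 normalised CPM with DMSO and 4849 to 5524 with SGC707. TH, which encodes the enzyme that starts catecholamine synthesis, had 0 counts in all 6 libraries. Of 8 mesenchymal markers 6 passed the filter, with summed levels of 252.6 to 318.0 normalised CPM with DMSO and 257.0 to 276.4 with SGC707. VIM and NOTCH2 made up most of that sum. Of the 6 tested mesenchymal markers 5 were negative on the log2 scale (median -0.30), and 3 (SNAI2, COL1A1 and FN1) had all SGC707 libraries below all DMSO libraries. Of the 11 tested adrenergic markers 10 were negative, with a median of -0.31, and 4 had all SGC707 libraries below all DMSO libraries. Among all tested genes, 9.78% lay apart in that direction. In the edgeR test over all genes, 0 markers of either list passed. At an unadjusted p under 0.05 in edgeR, 2 adrenergic and 3 mesenchymal markers were lower, beside 7.13% of all tested genes. The 5 Schwann-like markers summed to 1.25 to 3.13 normalised CPM over all libraries, with SOX10 at 0 counts in each. The part of cell state in the results below was not tested. In bulk samples, fewer cells of a kind and less RNA per cell cannot be told apart.

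All 10 members passed the filter on low counts and were tested among 12196 genes with edgeR's quasi-likelihood test. At a Benjamini-Hochberg adjusted p under 0.05, 0 of the 10 members differed between SGC707 and DMSO, where 0.0246% of all tested genes did (0.0082% higher and 0.0164% lower). Their adjusted p ranged from 0.251 to 0.923. By DESeq2, 1 member passed, MYC, where 0.443% of all tested genes were higher and 2.07% lower. With scaling by library totals alone MYC, MGA and MLX passed, where 21.1% of all tested genes were higher and 0.254% lower. At an unadjusted p under 0.05 in edgeR there were 2 higher members, MYC and MLX, where 5.62% of all tested genes were higher, and 1 lower member, MNT, where 7.13% were lower. The 3 libraries of one group lay apart from the 3 of the other in 2 members, MLX and MNT, where 20.6% of all tested genes did (10.8% higher and 9.78% lower), so that share is no result about the network. The median log2 fold change of the members was 0.01, against 0.02 for all tested genes.

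MYC (chromosome 8, 127735434 to 127741434, GRCh38), the broadly acting member of the MYC family, had the largest log2 fold change of the 10 members. It stood at 2.19, 2.84 and 2.88 normalised CPM with DMSO and at 1.99, 45.6 and 53.9 with SGC707. The underlying counts were 23, 29 and 32 with DMSO and 33, 725 and 691 with SGC707. SGC707 B and C were high and SGC707 A was just below all 3 DMSO libraries, so the groups overlapped. Counts of 23 to 33 limit the precision of the low values and of their order. Group means were 2.64 ± 0.384 with DMSO and 33.8 ± 27.9 with SGC707 (normalised CPM ± SD, n = 3). The log2 fold change was 3.67 (SE 0.99, 95% interval 1.38 to 5.97, edgeR adjusted p = 0.251).

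The call on MYC depended on the libraries kept and on the test used. Without SGC707 A the log2 fold change was 4.23 and passed the threshold (edgeR adjusted p = 7.26e-04). In that fit 0.0407% of all genes passed as higher and 0.0326% as lower. SGC707 A was the SGC707 library with low MYC, so a smaller p without it follows from which library was left out. DESeq2 on all libraries gave 3.67 (DESeq2 adjusted p = 0.0370), and limma-voom gave 2.61 (limma-voom adjusted p = 0.532). Over the 6 fits without 1 library the edgeR adjusted p ran from 7.26e-04 to 0.853. It was 0.735 without DMSO A and 0.853 without DMSO B.

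**Figure D1:**
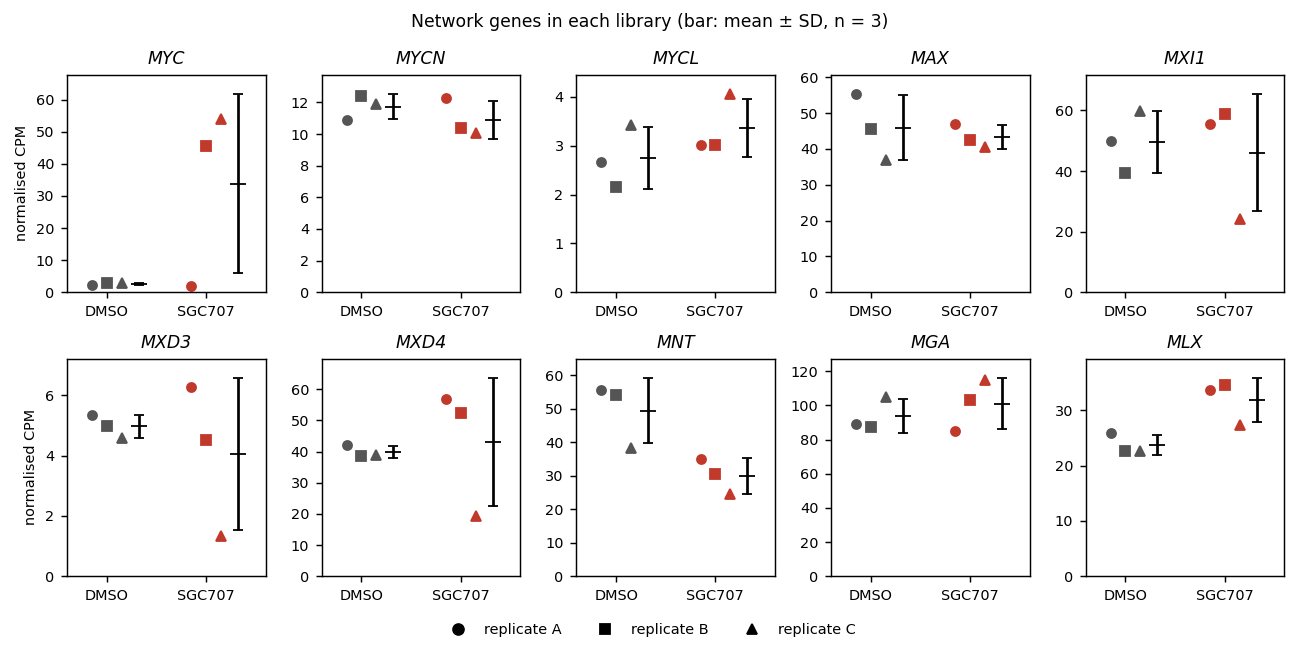
Normalised CPM of the 10 network genes (vertical axis, from 0) in each of 3 DMSO (grey) and 3 SGC707 (red) libraries, with the mean ± SD of each group as a black bar. MYC is at 45.6 and 53.9 in SGC707 B and C and at 1.99 in SGC707 A, and MXI1, MXD3 and MXD4 are lowest in SGC707 C.

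Within the SGC707 group, the highest MYC value was 27.01 times the lowest (33 counts), against 1.31 times within the DMSO group. A range this wide was rare in the table. With SGC707, 62 of 12196 tested genes, or 0.508%, had at least that range, counting 41 genes with a library at 0 counts. The median gene had a ratio of 1.499 within SGC707 and 1.28 within DMSO. Ratios of at least 10 were found for 129 genes within SGC707 and 72 within DMSO. These counts include the genes with a library at 0 counts, 41 with SGC707 and 28 with DMSO. No other annotated gene overlaps MYC in GENCODE release 29.

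**Figure D2:**
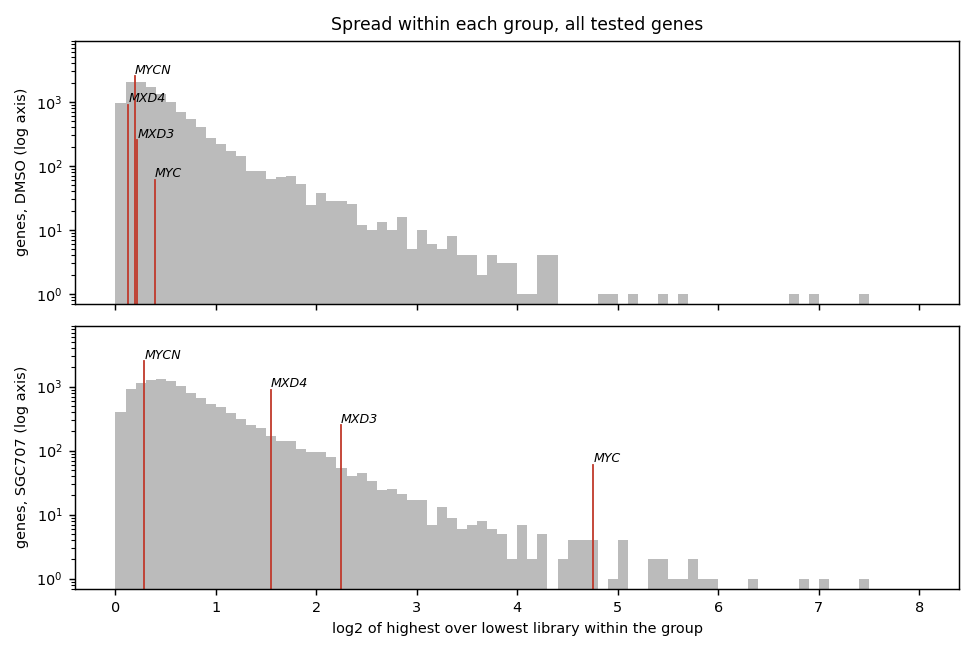
Number of tested genes (vertical log axis) by the log2 ratio of the highest to the lowest library within DMSO (top) and within SGC707 (bottom), with 4 members marked in red by lines of arbitrary height. Genes with a library at 0 counts, 28 with DMSO and 41 with SGC707, are not drawn, and MYC moves from the bulk of genes with DMSO to the far right with SGC707.

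Genes whose pattern over the 6 libraries was most like that of MYC were found by the root mean square difference of centred log2 normalised CPM, among 10186 other tested genes with a mean of at least 5 CPM. The nearest were KCTD20 (difference 1.07), MPZL1 (1.11) and UNC5D (1.32), with a median of 2.07 over all candidates. KCTD20 stood at 14.9, 17.1 and 26.9 normalised CPM with DMSO and at 27.7, 113.0 and 86.7 with SGC707. MPZL1, which encodes a membrane glycoprotein, stood at 35.9, 32.8 and 33.4 with DMSO and 24.8, 121.7 and 133.7 with SGC707. UNC5D, a netrin receptor gene, stood at 9.06, 12.8 and 9.27 with DMSO and 4.83, 28.0 and 24.3 with SGC707. In each of the 3 genes SGC707 B and C were the highest libraries, which follows from choosing them by the MYC pattern. SGC707 A lay below all DMSO libraries for MPZL1 and UNC5D and just above them for KCTD20.

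MYCN (chromosome 2, 15940564 to 15947007), the family member amplified in many other neuroblastomas, varied by at most 1.22-fold within a group. It stood at 10.9, 12.4 and 11.9 normalised CPM with DMSO and at 12.3, 10.4 and 10.1 with SGC707. SGC707 B and C were lowest and the groups overlapped. Group means were 11.7 ± 0.784 with DMSO and 10.9 ± 1.20 with SGC707 (normalised CPM ± SD, n = 3). The log2 fold change was -0.10 (95% interval -0.55 to 0.34, edgeR adjusted p = 0.861). By the same measure of likeness, its nearest genes were ACSS2 (0.0496), HDAC4 (0.0528) and IFT43 (0.0531), against a median of 0.303 over all candidates. MYCNOS, an antisense gene on the opposite strand, overlaps MYCN over 1686 bases. MYCNOS had no row of counts, and the strand used in counting was not given in the sources used here.

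MYCL (chromosome 1, 39895426 to 39902256), the third family member, was near the lower end of what these counts resolve, with 22 to 52 counts per library. It stood at 2.67, 2.15 and 3.42 normalised CPM with DMSO and at 3.02, 3.02 and 4.05 with SGC707. The groups overlapped, with the highest value in SGC707 C. This gave a log2 fold change of 0.29 (with 95% interval -0.42 to 0.99, edgeR adjusted p = 0.729).

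Per length, MYCN was the main MYC family transcript in 4 libraries and MYC in the other 2. As a share of the summed family level in normalised CPM per kilobase of the longest transcript, MYC made up 15.6%, 18.1% and 17.8% with DMSO and 13.0%, 79.7% and 81.7% with SGC707. The MYCN share was 66.8% to 72.7% in the 3 DMSO libraries and SGC707 A, and 16.5% and 13.9% in SGC707 B and C. The summed family level was 5.93, 6.63 and 6.84 normalised CPM per kilobase with DMSO and 6.48, 24.2 and 27.9 with SGC707. These shares describe libraries and were not tested.

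MAX (chromosome 14, 65006174 to 65102695) is the obligate partner of the MYC proteins and a partner of the MXD proteins and MNT. Its level was 55.2, 45.5 and 37.0 normalised CPM with DMSO and 47.1, 42.5 and 40.5 with SGC707. The SGC707 libraries lay inside the range of the DMSO libraries. SGC707 minus DMSO was -0.08 on the log2 scale (95% interval -0.51 to 0.35, edgeR adjusted p = 0.890). MAX shares 56479 bases of its locus with FNTB on the opposite strand, whose counts were 51 to 116 with DMSO and 29 to 191 with SGC707, below the 411 to 779 of MAX.

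MNT (chromosome 17, 2384060 to 2401118), a widely expressed repressor that pairs with MAX and with MLX, was the lower member with the smallest p. It stood at 55.8, 54.3 and 38.4 normalised CPM with DMSO and at 35.0, 30.4 and 24.5 with SGC707. All 3 SGC707 libraries lay below all 3 DMSO libraries, with 3.31 normalised CPM between DMSO C and SGC707 A. Group means were 49.5 ± 9.66 with DMSO and 30.0 ± 5.30 with SGC707 (normalised CPM ± SD, n = 3). The log2 fold change was -0.72 (SE 0.21, 95% interval -1.21 to -0.23, edgeR adjusted p = 0.266).

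With its transcript at 61.4% GC, MNT lies in the range where SGC707 C was low. After a correction for GC content and length, its level in SGC707 A, B and C was 28.4, 27.4 and 39.4 normalised CPM against 49.5, 49.7 and 38.7 in DMSO A, B and C, so that SGC707 C lay above DMSO C. The log2 fold change was then -0.54 (edgeR adjusted p = 0.119). Without 1 library it ran from -0.88 to -0.60, and with scaling by library totals it was -0.0024. That scaling gave a median of 0.69 over all tested genes, so MNT lay below it there too.

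MXD4 (chromosome 4, 2247432 to 2262294), an MXD repressor linked to differentiation, had 42.1, 38.5 and 38.9 normalised CPM with DMSO and 57.0, 52.5 and 19.5 with SGC707. SGC707 A and B lay above all DMSO libraries and SGC707 C below them. The log2 fold change was 0.11 (95% interval -0.71 to 0.94, edgeR adjusted p = 0.923). Without SGC707 C it was 0.45 and passed (edgeR adjusted p = 0.0476), in a fit in which 3.73% of all tested genes were higher and 5.53% lower. It was -0.14 without SGC707 A and -0.06 without SGC707 B.

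MXI1 (chromosome 10, 110207605 to 110287365), also called MXD2, stood at 49.98, 39.3 and 59.8 normalised CPM with DMSO and at 55.6, 58.7 and 24.0 with SGC707. SGC707 C alone lay outside the DMSO range. The log2 fold change was -0.11 (95% interval -0.88 to 0.66, edgeR adjusted p = 0.922), and 0.20 without SGC707 C and 0.04 without DMSO C. MXD3 (chromosome 5, 177301461 to 177312757), the MXD member expressed in dividing cells, stood at 5.34, 4.99 and 4.59 with DMSO and at 6.28, 4.53 and 1.32 with SGC707. It had 17 counts in SGC707 C and 51 to 104 in the others. Its fold change was -0.29 on the log2 scale (95% interval -1.41 to 0.84, edgeR adjusted p = 0.847), and 0.12 without SGC707 C. MXD3 overlaps RAB24 on the same strand and PRELID1 on the opposite strand, which had 74 to 151 and 403 to 821 counts per library, so the few counts of MXD3 are uncertain.

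The 3 MXD genes were therefore each lowest in SGC707 C, at 0.356 (MXD4), 0.420 (MXI1) and 0.245 (MXD3) times the mean of SGC707 A and B. Their longest transcripts differ in GC content, at 64.0%, 43.7% and 55.8%. After the GC and length correction the ratios were 0.785, 0.338 and 0.343, so the low value of SGC707 C moved toward the other libraries for MXD4 and stayed low for MXI1 and MXD3. A change in library SGC707 C and a response to SGC707 cannot be told apart with 1 such library.

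**Figure D3:**
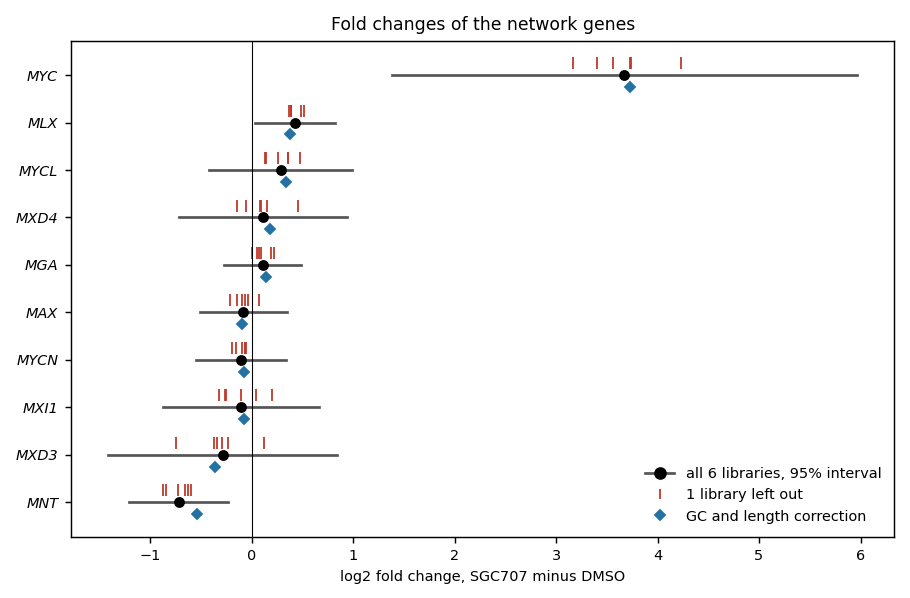
Log2 fold change of each network gene, SGC707 minus DMSO (horizontal axis), with its 95% interval from edgeR on all libraries (black point, grey line), the 6 fits without 1 library (red ticks) and the GC and length correction (blue diamonds). MYC lies at 3.67 with an interval of 1.38 to 5.97, and the intervals of MNT and MLX also exclude 0 before adjustment.

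MLX (chromosome 17, 42567068 to 42573239) stood at 25.8, 22.7 and 22.7 normalised CPM with DMSO and at 33.7, 34.6 and 27.4 with SGC707. All 3 SGC707 libraries lay above all 3 DMSO libraries. Group means were 23.7 ± 1.83 with DMSO and 31.9 ± 3.93 with SGC707 (normalised CPM ± SD, n = 3). The log2 fold change was 0.43 (SE 0.17, 95% interval 0.03 to 0.82, edgeR adjusted p = 0.366). Without SGC707 C it was 0.52 and passed (edgeR adjusted p = 0.0472), in a fit in which 3.73% of all tested genes were higher and 5.53% lower. PSMC3IP overlaps MLX on the opposite strand over 925 bases, with 362 to 479 counts per library against 232 to 557 for MLX. MGA (chromosome 15, 41621224 to 41773081), a very large repressor that carries a T-box domain beside its MAX-binding domain, had 89.1, 87.3 and 104.9 normalised CPM with DMSO and 85.3, 103.2 and 114.6 with SGC707. The groups overlapped, and the log2 fold change was 0.11 (95% interval -0.27 to 0.48, edgeR adjusted p = 0.819).

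Levels can be compared between genes only per length. In the DMSO group the order by normalised CPM per kilobase was MAX (14.5 ± 2.89, SD, n = 3), MXI1 (14.3 ± 2.95), MNT (9.90 ± 1.93), MXD4 (9.82 ± 0.480), MLX (9.18 ± 0.706), MGA (6.49 ± 0.670), MYCN (4.51 ± 0.301), MXD3 (2.19 ± 0.165), MYC (1.11 ± 0.162) and MYCL (0.844 ± 0.196). The ranges of MAX and MXI1 overlapped, as did those of MNT and MXD4, of MXD4 and MLX, and of MYC and MYCL, while the other neighbours lay apart. In the SGC707 group the order was MYC (14.3 ± 11.8), MAX (13.7 ± 1.06), MXI1 (13.3 ± 5.54), MLX (12.3 ± 1.52), MXD4 (10.6 ± 5.05), MGA (6.996 ± 1.02), MNT (6.002 ± 1.06), MYCN (4.19 ± 0.459), MXD3 (1.78 ± 1.11) and MYCL (1.03 ± 0.183). There only MNT and MYCN, and MYCN and MXD3, lay apart from each other as neighbours. With the median instead of the longest transcript length, MGA moved from rank 6 to 3, MNT from 3 to 4 and MXD4 from 4 to 6 in the DMSO group. In the SGC707 group MYC moved from rank 1 to 4, MAX from 2 to 1, MXI1 from 3 to 2, MGA from 6 to 3, MLX from 4 to 5, MNT from 7 to 6 and MXD4 from 5 to 7.

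The summed level of MXI1, MXD3, MXD4 and MNT was 6.46, 5.11 and 5.34 times that of the MYC family in DMSO A, B and C. It was 6.15, 1.57 and 0.617 times in SGC707 A, B and C. MAX stood at 2.95, 2.17 and 1.72 times the MYC family level with DMSO and at 2.30, 0.557 and 0.461 times with SGC707. SGC707 A was inside the DMSO range for both ratios, and SGC707 B and C were below it. The size of both ratios depends on the length used. With the median transcript length, MAX stood at 9.09, 6.73 and 5.20 times the MYC family level with DMSO and at 7.14, 1.43 and 1.17 times with SGC707, so it was above the family in every library. The ratio for MXI1, MXD3, MXD4 and MNT was then 11.2, 8.55 and 9.91 with DMSO and 10.7, 2.35 and 0.899 with SGC707. The placing of the libraries, with SGC707 A inside the DMSO range and B and C below it, held with both lengths. These are ratios of transcripts per length and say nothing of protein amounts.

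**Figure D4:**
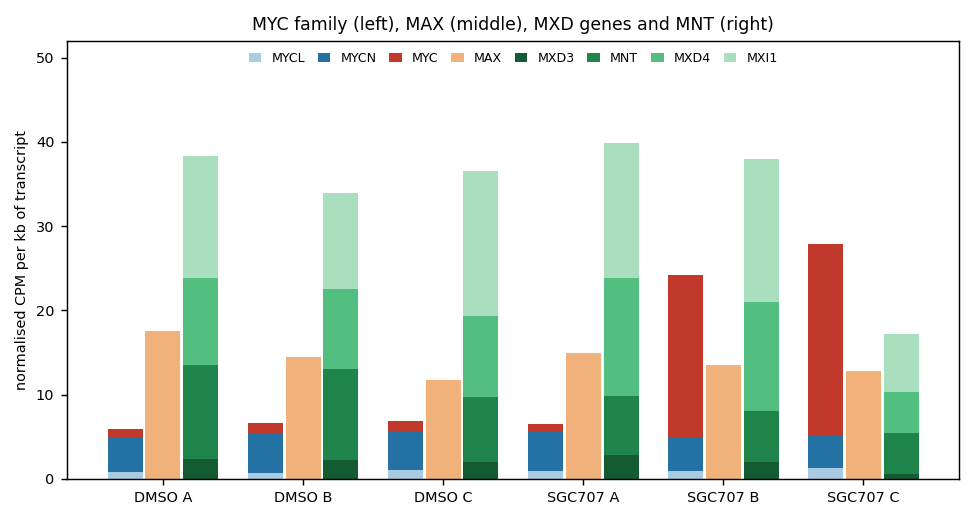
Normalised CPM per kilobase of the longest transcript (vertical axis, from 0) in each library, stacked for the MYC family, alone for MAX and stacked for MXI1, MXD4, MNT and MXD3. The MYC family bar reaches 24.2 and 27.9 in SGC707 B and C and 5.93 to 6.84 in the other libraries, and the MXD and MNT bar is lowest in SGC707 C.

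Of the 3 listed factors of the network outside the 10 members, 2 were tested and 0 passed, beside 0.0246% of all tested genes. MXD1 stood at 7.63, 37.0 and 22.3 normalised CPM with DMSO and at 20.1, 19.6 and 12.5 with SGC707, so DMSO libraries themselves spanned the whole range (log2 fold change -0.35, edgeR adjusted p = 0.796). MLXIP, which encodes MondoA, stood at 63.7, 59.4 and 46.5 with DMSO and 47.4, 48.4 and 32.5 with SGC707 (log2 fold change -0.40, edgeR adjusted p = 0.476). MLXIPL had 4 to 10 counts per library and was below the filter. Of the 2 listed target genes of the MLX partners, TXNIP, an arrestin-family protein that limits glucose uptake, stood at 112.0, 96.7 and 131.9 with DMSO and at 152.8, 158.2 and 168.0 with SGC707 (log2 fold change 0.49, edgeR adjusted p = 0.285). The TXNIP groups did not overlap, with SGC707 higher, as in 10.8% of all tested genes. Those of the related gene ARRDC4 overlapped (log2 fold change -0.11, edgeR adjusted p = 0.861).

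Proteins that work with the network were listed by role, and 0 of the genes in these lists passed the test, beside 0.0246% of all tested genes. Of 15 coactivators and partners of MYC, 5 were positive and 10 negative on the log2 scale, and the median was -0.23 against 0.02 for all tested genes. Before adjustment, 6 of the 15 were lower and 1 higher at p under 0.05 in edgeR, beside 7.13% and 5.62% of all tested genes. All SGC707 libraries lay below all DMSO libraries in 6 of the 15 and above them in 4, beside 9.78% and 10.8% of all tested genes. Among the lower genes, HCFC1 (-0.71), a chromatin cofactor, and PAF1 (-0.47), a subunit of the polymerase-associated factor complex, had edgeR adjusted p of 0.275 and 0.317.

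Of 14 SIN3 and histone deacetylase corepressors, 6 were positive and 8 negative, with a median of -0.12. The scaffold SIN3A (-0.63) and SAP30 (-0.57) had negative values and SAP18 (0.51) a positive one, with edgeR adjusted p from 0.277 to 0.328. Of 11 partners of MGA in the Polycomb complex PRC1.6, 8 were positive and 3 negative, with a median of 0.03. E2F6, the repressive E2F factor of that complex, stood at 19.1, 18.8 and 19.2 normalised CPM with DMSO and at 27.3, 33.6 and 29.2 with SGC707 (log2 fold change 0.66, edgeR adjusted p = 0.233). CBX3 (0.47) and CBX1 (0.15), which bind methylated histone H3, had edgeR adjusted p of 0.311 and 0.736.

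Among 18 genes that set the stability of MYC and MYCN proteins, 8 were positive and 10 negative, with a median of -0.05. The deubiquitinase USP36 (-0.62), the ubiquitin ligase HUWE1 (-0.35) and SKP2 (-0.32), an F-box protein, had edgeR adjusted p from 0.278 to 0.457. Of 12 listed regulators of MYC mRNA or transcription, 10 were tested, 7 positive and 3 negative, with a median of 0.15. CNBP (0.67) and HNRNPK (0.36), which bind nucleic acids, had positive values and ELAVL1 (-0.27), an RNA-stabilising protein, a negative value, and their edgeR adjusted p ran from 0.235 to 0.421. The positive median of this list rested on SGC707 C, where it was 0.38 above the DMSO mean on the log2 scale, against -0.08 and 0.05 in SGC707 A and B. Without SGC707 C the list median was -0.04, and over the other fits without 1 library it ran from 0.13 to 0.30.

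Genes known from other systems as induced by MYC went in both directions. Of 60 listed, 59 were tested, with 38 positive and 21 negative (64.4% positive, against 52.8% of all tested genes) and a median of 0.07, against 0.02. At an unadjusted p under 0.05 in edgeR, 5 of the 59 were higher and 2 lower, beside 5.62% higher and 7.13% lower among all tested genes. PPRC1 (-0.61), a coactivator of mitochondrial biogenesis, had a negative value, and the transferrin receptor gene TFRC (0.51) and the lactate dehydrogenase gene LDHA (0.58) positive ones, with edgeR adjusted p from 0.290 to 0.311. By library, the median deviation from the DMSO mean was 0.13, 0.12 and -0.0015 log2 units in SGC707 A, B and C. SGC707 A, with MYC at 1.99 normalised CPM, and SGC707 B, with MYC at 45.6 normalised CPM, had nearly the same median, while single genes differed more between libraries. Whether these genes follow the MYC level was not tested.

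Of 11 genes listed as repressed by MYC, 10 were tested, 6 positive and 4 negative, with a median of 0.04. The cell cycle inhibitor gene CDKN1B (0.29), NDRG2 (-0.33) and CDKN2C (0.41) had edgeR adjusted p from 0.430 to 0.511. The median by library was 0.14, 0.06 and -0.20 in SGC707 A, B and C. Genes with CACGTG in at least 1 promoter window were 1249 of the tested genes. Their median log2 fold change was 0.04, with 54.6% positive, beside 0.02 and 52.8% for all tested genes, and their median by library was 0.04, 0.04 and -0.0063 in SGC707 A, B and C.

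**Figure D5:**
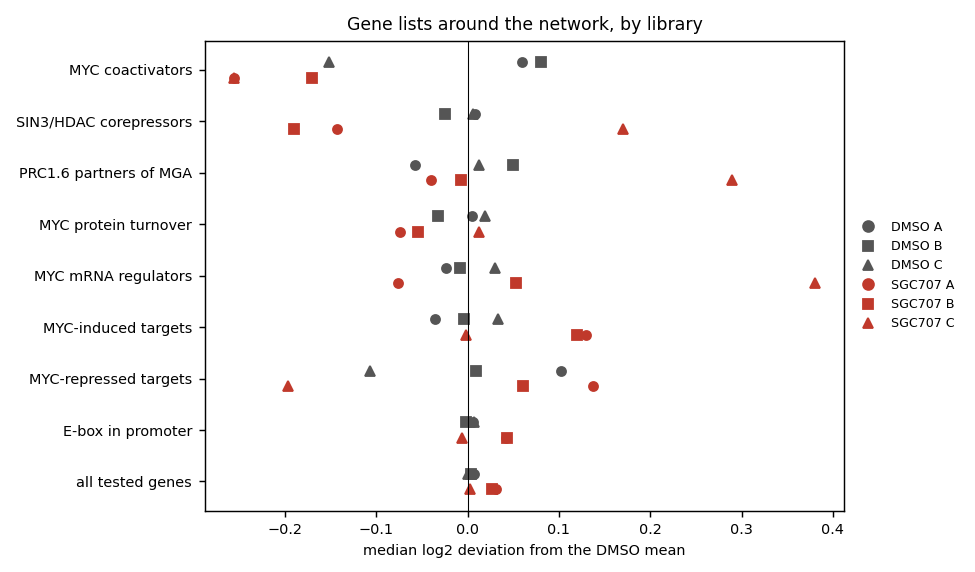
Median log2 deviation from the DMSO mean (horizontal axis) of each gene list in each DMSO (grey) and SGC707 (red) library, with replicate A as circles, B as squares and C as triangles. The MYC-induced targets stand at 0.13 and 0.12 in SGC707 A and B, and SGC707 C lies apart from A and B in several lists.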

How the data were processed

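Per the labels' protocols, mRNA was isolated from DNase-treated total RNA, fragmented and sequenced as paired reads of 150 bases. Deposited values were read counts, whole numbers listed by gene symbol, with library sums that differ. Per the submitters' processing notes the tools were HISAT2 and StringTie and the build GRCh38, with annotation, strand setting and handling of shared reads not given in the sources used here. Positions, GC content and lengths came from GENCODE release 29, with 19294 symbols matched directly, 296 through a synonym and 20 unmatched.

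SGC707 was tested against DMSO on these counts using edgeR 4.0.16 under R 4.3.3 (filterByExpr, TMM, robust glmQLFit, glmQLFTest, no covariate), with Benjamini-Hochberg adjustment over all tested genes. Standard errors are the log2 fold change over the square root of F. On simulated data of the same size (12083 genes tested), 54% of genes changed 2-fold and 93% changed 4-fold were recovered, with 8 false calls. The simulation gave each gene the spread fitted for its expression level and held no library that differed as SGC707 C did. Its shares therefore do not give the recovery in the real libraries. Alternatives were RLE factors, library totals, no low-count filter, one that asked for a mean count of 50 and 1 CPM in 3 libraries, limma-voom 3.58.1, DESeq2 1.42.0, each library left out, the replicate letter as a block, no mitochondrial genes, a threshold of 0.01, and a lowess correction (span 0.3, mean count at least 20) for GC content and length, alone and with the block.

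The members and lists were chosen with earlier results of these data known, and the genes with an E-box were added after seeing the data. Named genes are all members, the 3 smallest p of each list, lists of 3 or fewer whole, and the 3 nearest patterns to MYC and MYCN. One gene that this rule names is not reported here. MYC has no promoter sequence shown here. Figures were drawn with matplotlib 3.10.9.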

Additional observations from a re-analysis of the deposited data

How the results depend on the processing

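Genes past the threshold were 1 higher and 2 lower on all libraries. They were 2574 and 31 with library totals only, 9 and 53 after the GC and length correction, 54 and 253 with DESeq2, 0 and 2 with limma-voom, 1 and 5 when low counts were not filtered, and 0 and 0 at an adjusted p under 0.01. With the replicate letter as a block they were 0 and 0 (in edgeR, 1534 had an unadjusted p under 0.05), and 1 and 1 with the block and the correction. Same-lettered libraries had correlations of deviations across genes of 0.0795, -0.0228 and 0.0998, so the letters were not taken as pairs. With 1 library left out there were 0 to 462 higher and 0 to 685 lower, most without SGC707 C. Leaving out SGC707 B, DMSO B or DMSO A gave 0 and 0, leaving out SGC707 A 5 and 4, and leaving out DMSO C 0 and 5.

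With library totals only, MYC (4.27), MGA (0.75) and MLX (1.11) passed, and MYCN (0.58), MAX (0.61), MXI1 (0.59) and MXD3 (0.46) had positive log2 fold changes. MYC also passed with DESeq2 (3.67). MXD4 was -0.021 with the replicate block and -0.012 with limma-voom. Without 1 library the log2 fold changes ran from 3.16 to 4.23 for MYC, -0.22 to 0.070 for MAX (positive without DMSO A), -0.32 to 0.20 for MXI1, -0.75 to 0.12 for MXD3, -0.14 to 0.45 for MXD4, 0.36 to 0.52 for MLX, -0.20 to -0.05 for MYCN, 0.13 to 0.47 for MYCL and 0.0028 to 0.22 for MGA. The cause of these differences was not tested. MYCL was not tested under the stricter filter, and DESeq2 gave no adjusted p for MYCL and MXD3. No member call changed under the block. Counts of 17 to 52 limit the precision of MXD3 in SGC707 C, of MYCL, and of MYC with DMSO and in SGC707 A.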

Other observations

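Other helix-loop-helix factors that bind E-boxes outside the network were also listed. Of 12, 9 passed the filter, 4 with positive and 5 with negative log2 fold changes and a median of -0.11, and 0 passed the edgeR test over all genes (2 lower at an unadjusted p under 0.05, beside 7.13% of all tested genes). TFAP4, itself known as a MYC target, stood at 28.0, 24.7 and 21.4 normalised CPM with DMSO and at 19.7, 16.5 and 12.7 with SGC707 (log2 fold change -0.60, edgeR adjusted p = 0.321). USF2, a ubiquitous E-box factor, stood at 32.5, 38.4 and 31.6 with DMSO and at 28.4, 25.8 and 22.1 with SGC707 (log2 fold change -0.43, edgeR adjusted p = 0.373). In both genes all 3 SGC707 libraries lay below all 3 DMSO libraries, as in 9.78% of all tested genes. MITF, the melanocyte factor, was near the filter, with at most 1.79 normalised CPM (log2 fold change 0.57, edgeR adjusted p = 0.705). TFEB, BHLHE40 and BHLHE41 were below the filter.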
